A study of Mus musculus with 14 samples.

Results

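The 36 genes described here encode the DNA polymerases, the sliding clamp and its loader, and the proteins that license and fire replication origins, with partners that mature, protect and package new DNA. They were chosen by name, and each was read from its brightest probe set with that symbol alone, so that all 36 were measured among 19938 genes. Expression was measured on 14 microarrays of BH1-Bcl2-Ik1ER cells. The line derives from BH1, mouse pre-B cells that lack Ikaros, a zinc finger transcription factor of lymphocytes. All cells of every group carried 2 retroviruses, 1 for Bcl2, which blocks apoptosis, and 1 for Ikaros fused to the estrogen receptor, and doubly transduced cells had been sorted. Fusion activity was induced with 4-hydroxytamoxifen (4OHT, 100 nM). IL-7, the cytokine on which early B cells grow, came as 8% conditioned medium, which was left out of the cultures called withdrawn here. Of the 7 groups 1 was taken at time 0. The 2 groups of 6 h both had 4OHT, and 1 of them lacked IL-7. The 4 groups of 24 h had IL-7 alone, IL-7 with 4OHT, neither, or 4OHT alone. Each group had 2 arrays, 1 from each of 2 independent experiments. All cells measured held the fusion, so an effect of 4OHT itself and one of Ikaros activity cannot be told apart. No 6 h array was without 4OHT, and the Bcl2 virus was present in every group.

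A cell copies its genome once per division by preparing origins before S phase and firing them within it. The origin recognition complex (ORC), CDC6 and CDT1 load the MCM helicase onto DNA, geminin (Gmnn) blocks CDT1 from loading it again, and the kinase CDC7 with its activator DBF4 starts the loaded helicase. Polymerase alpha with primase lays the primers, the RFC clamp loader places the PCNA ring on them, and polymerases delta and epsilon extend the strands while RPA covers single-stranded DNA. FEN1 and DNA ligase I finish the lagging strand, CAF-1 (Chaf1a, Chaf1b) and ASF1 put histones onto the new DNA, and UHRF1 with DNMT1 copy its methylation marks. Timeless, TIPIN and claspin hold the fork together and pass on its stress signal. Many of these genes are known targets of E2F factors, and large pre-B cells are known to divide under IL-7.

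Values are the log2 expression values the authors deposited, and differences are on that log2 scale, so that 1 unit is a doubling. Differences were tested with limma over all 19938 genes, and passing means an adjusted p (Benjamini-Hochberg) under 0.05. Every error given with a difference is its standard error (SE) from that fit, with n = 2 arrays per group. Array medians lay between 7.23 and 7.43, and the mean of each of the 36 genes lay above 7.33, the median of all values. Of the 12 pre-B cell markers 11 were measured and 8 lay above that median, among them Cd79a, Vpreb1, Igll1, Pax5 and Ebf1, while Rag1, Rag2 and Dntt lay below it. The mean of the 11 ranged from 10.4 to 10.8 over the groups. No T cell marker of 6 lay above the median, and 2 of 9 myeloid, 1 of 4 erythroid or megakaryocyte, 3 of 5 plasma cell and 3 of 6 stromal markers did. In total RNA of whole cultures, fewer cells in S phase and less RNA per cell cannot be told apart.

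All 36 genes differed among the 7 groups, with limma F test adjusted p from 9.27e-08 for Pole2 to 0.00645 for Rfc1, against 34.3% of all genes. The highest group mean was at 24 h with IL-7 for every gene, in 23 without 4OHT and in 13 with it. The lowest was at 24 h without IL-7 for every gene, in 30 with 4OHT and in 6 without it. In all 36 the 4 arrays with IL-7 at 24 h lay above the 4 arrays without it, which held for 11.7% of all genes. The median over the 36 genes of their group means was 10.51 at time 0, 10.26 and 10.18 at 6 h with and without IL-7, and 10.82 and 10.79 at 24 h with IL-7, without and with 4OHT. It was 9.68 at 24 h without IL-7 and 9.47 when 4OHT was added. The experiments also differed. Experiment 1 was higher for all 36 genes at time 0 by a median of 0.30 and at 6 h with IL-7 by 0.36. At 6 h without IL-7 it was higher for 35 of 36, by a median of 0.28. At 24 h the medians of that gap lay between 0.01 and 0.13 in the 4 groups. Averaged over the groups, the gap had a median of 0.18 for the 36 genes and -0.007 for all genes. Its part in the comparisons with time 0 and 6 h was not tested beyond the values within each experiment and with the experiment as a block given below.

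**Figure D1:**
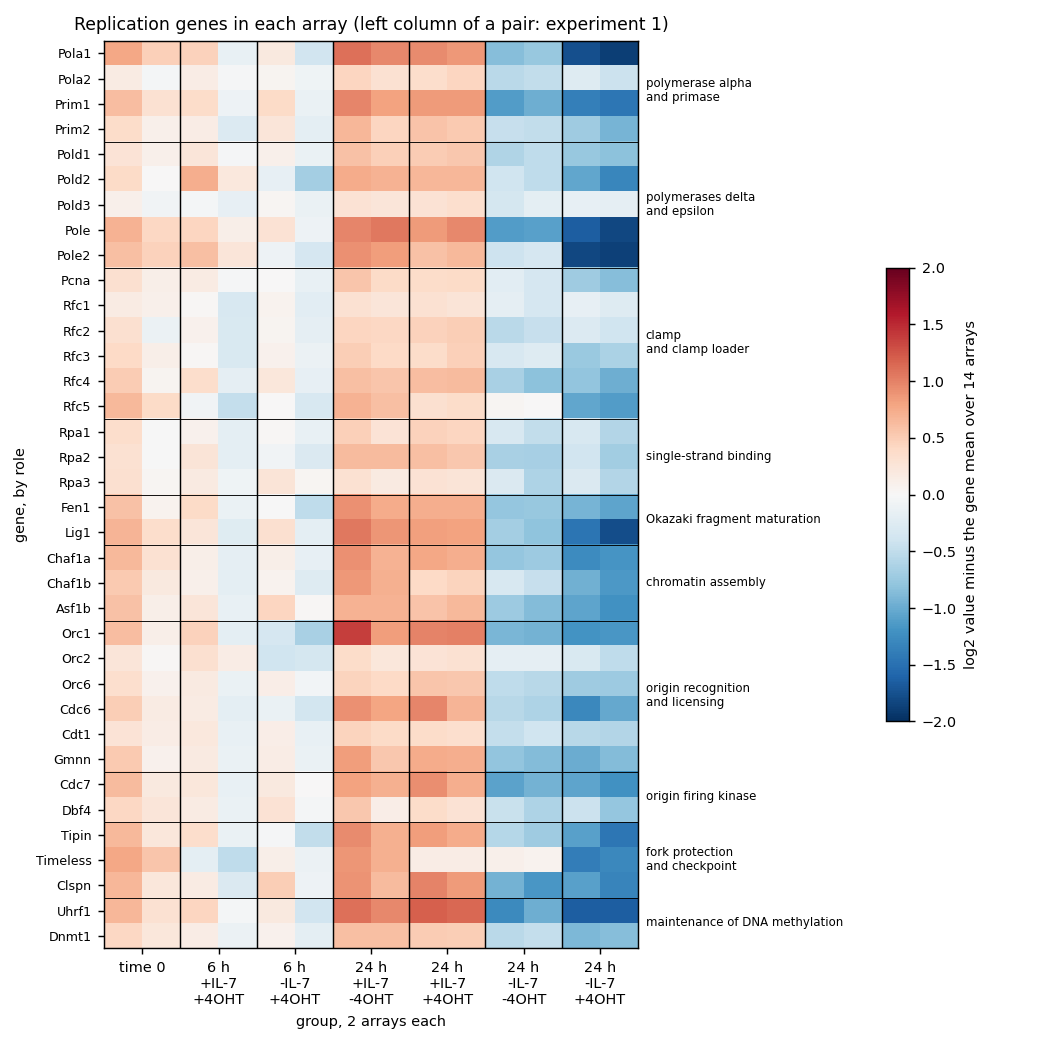
Log2 value of each of the 36 genes (rows, grouped by role) in each of the 14 arrays (columns, 2 per group, experiment 1 on the left), minus the mean of the gene over the 14 arrays. Red is above that mean and blue below it. In all 36 rows the 24 h arrays without IL-7 lie below the 24 h arrays with it. In Timeless and Rfc5 the arrays without IL-7 or 4OHT at 24 h still lie slightly above the gene mean.

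The main question of the design for these genes is what loss of IL-7 does to them, with and without 4OHT. After 24 h without 4OHT all 36 genes were lower without IL-7, with changes from -2.16 to -0.48 and a median of -1.17. Of all genes 8.78% passed as lower and 11.2% as higher (1562 lower and 1186 higher with array medians set to 0), and the median change of all genes was -0.01. Under 4OHT all 36 were again lower, with a median of -1.48 against 0.06 for all genes, of which 11.5% passed as lower and 12.8% as higher (2313 and 947 genes with array medians set to 0). The 36 were lower in both experiments in each of the 2 comparisons, with medians of -1.18 and -1.17 without 4OHT and -1.40 and -1.54 with it. Leaving out the second array without IL-7 or 4OHT ended the calls of Rfc1 (adjusted p = 0.0742) and Rpa3 (adjusted p = 0.0604) without 4OHT, and 34 genes still passed. Markers moved with the same comparisons. Of the 11 pre-B cell markers 6 were higher without IL-7 in the absence of 4OHT, among them Blnk by 0.76 ± 0.09 (adjusted p = 0.000138), and under 4OHT 6 were higher and 1 lower. The mean of the 11 lay between 10.42 and 10.58 in the 4 arrays with IL-7 at 24 h and between 10.69 and 10.77 in the 4 without it. Of 5 plasma cell markers Sdc1 was lower in both comparisons, by 0.78 and 0.79, and 1 was higher in each, Prdm1 without 4OHT and Xbp1 with it, and their mean lay between 8.62 and 8.72 with IL-7 and between 8.59 and 8.68 without it. Of 9 myeloid markers only Itgam passed, higher by 0.60 without 4OHT and 0.84 with it, and their mean lay between 6.49 and 6.60 with IL-7 and between 6.56 and 6.64 without it. Of the other lists only Itga2b of the erythroid and megakaryocyte list passed, higher under 4OHT. The part of these markers in the fall of the 36 genes was not tested.

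Polymerase alpha and primase, which start each strand, fell in all 4 genes, with a median of -1.43 without 4OHT and -1.81 with it. Pola1 encodes the catalytic subunit of polymerase alpha. Its log2 values in experiments 1 and 2 were 10.26 and 9.96 at time 0, 9.94 and 9.33 at 6 h with IL-7 and 4OHT, and 9.67 and 9.10 at 6 h without IL-7 and with 4OHT. At 24 h they were 10.58 and 10.44 with IL-7, 10.43 and 10.36 with IL-7 and 4OHT, 8.62 and 8.72 without IL-7, and 7.72 and 7.60 without IL-7 and with 4OHT. Its lowest array with IL-7 at 24 h thus lay more than 1 unit above its highest array without IL-7, and IL-7 withdrawal changed it by -1.84 ± 0.20 (adjusted p = 6.13e-05) without 4OHT and -2.73 ± 0.20 (adjusted p = 1.99e-06) with it. Prim1 encodes the small subunit of primase, which makes the RNA primer. It read 10.31 and 10.01 at time 0, 10.06 and 9.59 at 6 h with IL-7 and 4OHT, and 10.08 and 9.56 at 6 h without IL-7 and with 4OHT. Its 24 h values were 10.67 and 10.50 with IL-7, 10.55 and 10.55 with IL-7 and 4OHT, 8.59 and 8.72 without IL-7, and 8.33 and 8.26 without IL-7 and with 4OHT. The change on withdrawal was -1.93 ± 0.17 (adjusted p = 2.23e-05) without 4OHT and -2.26 ± 0.17 (adjusted p = 2.85e-06) with it. Pola2, the accessory subunit of polymerase alpha, and Prim2, the large subunit of primase, changed by -0.88 and -1.02 without 4OHT.

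Polymerase epsilon extends the leading strand and polymerase delta the lagging strand, and all 5 of their genes fell. Pole encodes the catalytic subunit of epsilon and Pole2 its accessory subunit, which helps to assemble the helicase at origins. Pole read 11.07 and 10.78 at time 0, 10.80 and 10.48 at 6 h with IL-7 and 4OHT, and 10.65 and 10.26 at 6 h without IL-7 and with 4OHT. At 24 h it read 11.34 and 11.42 with IL-7, 11.21 and 11.32 with IL-7 and 4OHT, 9.25 and 9.28 without IL-7, and 8.71 and 8.54 without IL-7 and with 4OHT. The 24 h arrays with and without IL-7 did not overlap, and Pole changed by -2.11 ± 0.14 (adjusted p = 5.52e-06) without 4OHT and -2.64 ± 0.14 (adjusted p = 2.77e-07) with it. Pole2 values were 10.65 and 10.50 at time 0, 10.64 and 10.28 at 6 h with IL-7 and 4OHT, and 9.93 and 9.70 at 6 h without IL-7 and with 4OHT. Its 24 h values were 10.95 and 10.87 with IL-7, 10.63 and 10.69 with IL-7 and 4OHT, 9.62 and 9.70 without IL-7, and 8.23 and 8.18 without IL-7 and with 4OHT. In Pole2 the 2 arrays with neither IL-7 nor 4OHT lay between the arrays with IL-7 and those without IL-7 and with 4OHT, and the changes on withdrawal were -1.25 ± 0.11 (adjusted p = 2.23e-05) without 4OHT and -2.45 ± 0.11 (adjusted p = 1.04e-07) with it. Of the polymerase delta genes, Pold1 (catalytic subunit) changed by -1.08, Pold2 by -1.17 and Pold3 by -0.54 without 4OHT, and all 3 passed.

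All 6 genes of the clamp and its loader fell, with a median of -0.74 without 4OHT and -1.13 with it. Pcna encodes the ring that ties polymerases to DNA. It read 12.94 and 12.74 at time 0, 12.80 and 12.60 at 6 h with IL-7 and 4OHT, and 12.64 and 12.48 at 6 h without IL-7 and with 4OHT. At 24 h it read 13.18 and 13.02 with IL-7, 12.998 and 13.004 with IL-7 and 4OHT, 12.42 and 12.29 without IL-7, and 11.92 and 11.78 without IL-7 and with 4OHT. Its 4 arrays without IL-7 at 24 h lay below its other 10 arrays, and its change was -0.75 ± 0.10 (adjusted p = 0.000321) without 4OHT and -1.15 ± 0.10 (adjusted p = 8.18e-06) with it. A second Pcna probe set differed by at most 0.0342 in any array, and the annotation does not say whether either also reads a Pcna pseudogene. The largest loader change without 4OHT was that of Rfc4 at -1.32, and the smallest that of Rfc1, the large subunit, at -0.53. The 3 RPA genes, whose products coat single strands, changed by -0.78 (Rpa1), -1.30 (Rpa2) and -0.70 (Rpa3). The other Rpa3 probe set gave -0.46.

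Lig1, the ligase that seals Okazaki fragments, read 10.87 and 10.54 at time 0, 10.43 and 9.94 at 6 h with IL-7 and 4OHT, and 10.52 and 10.000 at 6 h without IL-7 and with 4OHT. Its 24 h values were 11.24 and 11.07 with IL-7, 11.02 and 11.003 with IL-7 and 4OHT, 9.51 and 9.39 without IL-7, and 8.73 and 8.42 without IL-7 and with 4OHT. Withdrawal changed Lig1 by -1.71 ± 0.19 (adjusted p = 6.97e-05) without 4OHT and -2.44 ± 0.19 (adjusted p = 2.81e-06) with it, and Fen1, the flap nuclease that acts before it, changed by -1.59 and -1.72. Among the histone chaperones, Chaf1a encodes the large subunit of CAF-1. Chaf1a read 9.75 and 9.40 at time 0, 9.21 and 8.93 at 6 h with IL-7 and 4OHT, and 9.21 and 8.93 at 6 h without IL-7 and with 4OHT. At 24 h it read 10.01 and 9.79 with IL-7, 9.87 and 9.82 with IL-7 and 4OHT, 8.32 and 8.37 without IL-7, and 7.84 and 7.92 without IL-7 and with 4OHT. Its change was -1.56 ± 0.13 (adjusted p = 1.73e-05) without 4OHT, beside -1.18 for Chaf1b and -1.49 for Asf1b.

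The 6 origin genes differed among themselves, from -0.48 for Orc2 to -2.04 for Orc1 without 4OHT. Orc1, the largest ORC subunit, read 8.24 and 7.73 at time 0, 8.09 and 7.43 at 6 h with IL-7 and 4OHT, and 7.28 and 6.97 at 6 h without IL-7 and with 4OHT. At 24 h Orc1 read 9.002 and 8.46 with IL-7, 8.62 and 8.62 with IL-7 and 4OHT, 6.70 and 6.68 without IL-7, and 6.42 and 6.45 without IL-7 and with 4OHT. Every array without IL-7 at 24 h lay below every array with IL-7 at any time, and withdrawal changed Orc1 by -2.04 ± 0.22 (adjusted p = 6.74e-05) without 4OHT and -2.18 ± 0.22 (adjusted p = 2.19e-05) with it. Cdc6, the loader that joins ORC, read 8.66 and 8.33 at time 0, 8.34 and 7.98 at 6 h with IL-7 and 4OHT, and 8.03 and 7.81 at 6 h without IL-7 and with 4OHT. Its values at 24 h were 9.09 and 8.97 with IL-7, 9.14 and 8.85 with IL-7 and 4OHT, 7.62 and 7.56 without IL-7, and 6.89 and 7.15 without IL-7 and with 4OHT. Its changes were -1.44 ± 0.15 (adjusted p = 5.48e-05) and -1.98 ± 0.15 (adjusted p = 2.76e-06) without and with 4OHT. Gmnn, the inhibitor of CDT1, changed by -1.51 without 4OHT, and Cdt1 itself by -0.86, so that the licensing factor and its inhibitor were both lower. Orc6 changed by -0.96. Of the firing kinase, Cdc7 changed by -1.76 ± 0.15 (adjusted p = 1.62e-05) and its activator Dbf4 by -0.86.

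Among the fork protection genes, Clspn encodes claspin, which carries the stress signal to the kinase CHK1. Clspn read 8.85 and 8.41 at time 0, 8.34 and 7.89 at 6 h with IL-7 and 4OHT, and 8.67 and 8.08 at 6 h without IL-7 and with 4OHT. At 24 h it read 9.08 and 8.81 with IL-7, 9.17 and 9.04 with IL-7 and 4OHT, 7.23 and 7.02 without IL-7, and 7.10 and 6.87 without IL-7 and with 4OHT. The change was -1.82 ± 0.21 (adjusted p = 9.47e-05) without 4OHT and -2.12 ± 0.21 (adjusted p = 1.71e-05) with it. Tipin, the partner of Timeless, read 10.61 and 10.19 at time 0, 10.31 and 9.82 at 6 h with IL-7 and 4OHT, and 9.95 and 9.48 at 6 h without IL-7 and with 4OHT. Its 24 h values were 10.90 and 10.67 with IL-7, 10.79 and 10.70 with IL-7 and 4OHT, 9.39 and 9.25 without IL-7, and 8.88 and 8.52 without IL-7 and with 4OHT. Tipin changed by -1.46 without 4OHT and by -2.05 ± 0.20 with it. Uhrf1, which reads hemimethylated DNA behind the fork and brings in DNMT1, had the largest change of the 36. It read 10.36 and 10.002 at time 0, 10.13 and 9.66 at 6 h with IL-7 and 4OHT, and 9.89 and 9.31 at 6 h without IL-7 and with 4OHT. At 24 h Uhrf1 read 10.80 and 10.67 with IL-7, 10.89 and 10.85 with IL-7 and 4OHT, 8.42 and 8.73 without IL-7, and 8.05 and 8.05 without IL-7 and with 4OHT. The fall was 4.46-fold without 4OHT, a log2 change of -2.16 ± 0.19 (adjusted p = 2.23e-05), and 7.05-fold with it, -2.82 ± 0.19 (adjusted p = 1.45e-06). Dnmt1, the enzyme, changed by -1.11 and -1.37.

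**Figure D2:**
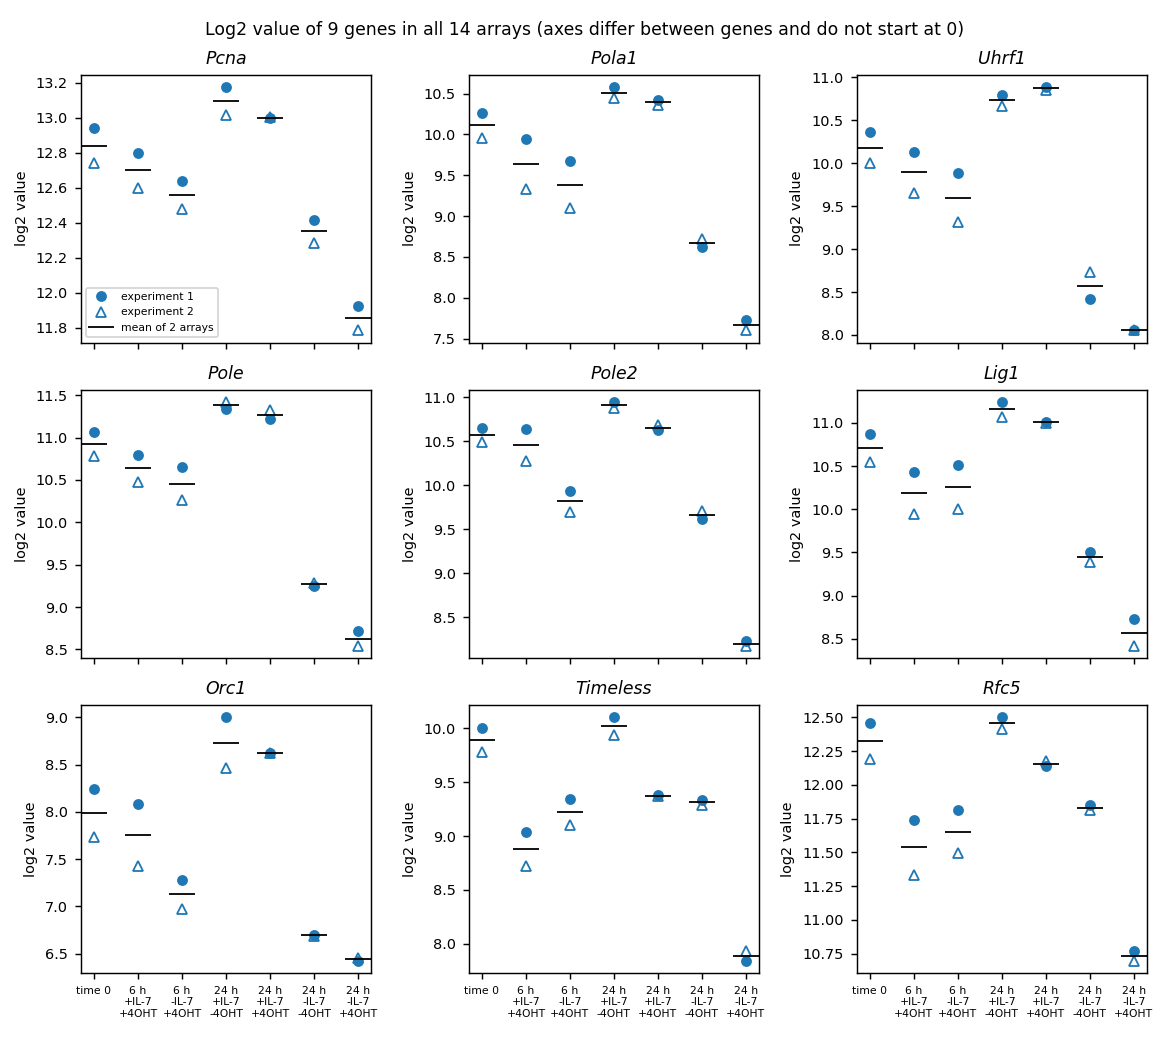
Log2 value (vertical axes, which differ between genes and do not start at 0) of Pcna, Pola1, Uhrf1, Pole, Pole2, Lig1, Orc1, Timeless and Rfc5 in the 7 groups (horizontal axis). Filled circles are experiment 1, open triangles experiment 2 and bars the mean of 2 arrays. The 4 arrays without IL-7 at 24 h lie below the 4 with it in every panel. Among these 4 without IL-7 the arrays with 4OHT lie lowest, also in every panel.

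**Figure D3:**
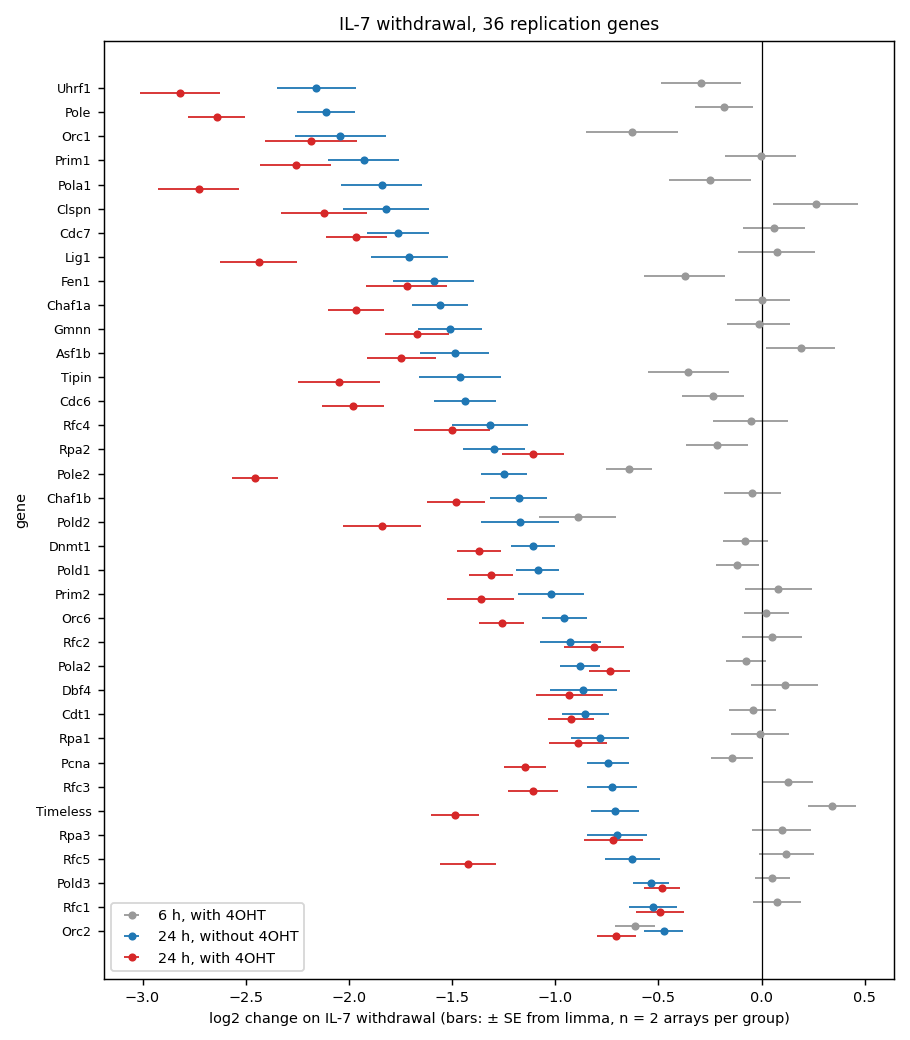
Log2 change on IL-7 withdrawal (horizontal axis) for each of the 36 genes (vertical axis), at 6 h with 4OHT (grey), at 24 h without 4OHT (blue) and at 24 h with 4OHT (red). Bars are ± SE from limma with n = 2 arrays per group. All 24 h points lie between -2.82 and -0.48, and the 6 h points lie on both sides of 0.

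Because the 36 genes moved together at 24 h, the bases before their start sites were searched for known motifs, in RefSeq windows of 300 bases (250 before the start and 50 after) on GRCm38.p6. A window was held for 31 of the 36 genes, and not for Gmnn, Pole, Prim2, Rfc2 and Tipin. The E2F words TTTGGCGC, TTTCGCGC, TTTCCCGC and TTTGCCGC, on either strand, were in a window of 12 of the 31 (38.7%), against 2.6% of 27025 genes. A match is a description of the letters, not of binding. CCAAT, the core of the NF-Y motif, was in 17 (54.8%, against 41.1%), the CACGTG E-box in 6 (19.4%, against 8.09%) and TTTGAA, the core of the cell cycle homology region, in 6 (19.4%, against 20.2%). The 250 bases before the start are printed for 4 genes with an E2F word there, which stand for the polymerase, methylation and origin genes. Capitals mark the E2F word, and in Cdc6 also TGGGAA, a core of the Ikaros motif. They lie at chrX:93632156-93632405, minus strand (Pola1), chr17:56304063-56304312, plus strand (Uhrf1, 1 of 2 windows), chr4:108579204-108579453, plus strand (Orc1) and chr11:98907901-98908150, plus strand (Cdc6).
Pola1: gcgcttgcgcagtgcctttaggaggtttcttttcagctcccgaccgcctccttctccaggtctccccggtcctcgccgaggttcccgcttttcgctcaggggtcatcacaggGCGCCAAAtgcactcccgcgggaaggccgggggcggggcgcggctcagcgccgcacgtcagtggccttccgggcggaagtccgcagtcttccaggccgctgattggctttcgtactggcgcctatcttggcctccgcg
Uhrf1: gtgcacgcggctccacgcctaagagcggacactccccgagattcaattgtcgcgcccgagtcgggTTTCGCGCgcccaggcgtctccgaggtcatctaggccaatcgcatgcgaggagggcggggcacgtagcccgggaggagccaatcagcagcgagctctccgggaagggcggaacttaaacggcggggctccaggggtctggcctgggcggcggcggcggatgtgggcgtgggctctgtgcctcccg
Orc1: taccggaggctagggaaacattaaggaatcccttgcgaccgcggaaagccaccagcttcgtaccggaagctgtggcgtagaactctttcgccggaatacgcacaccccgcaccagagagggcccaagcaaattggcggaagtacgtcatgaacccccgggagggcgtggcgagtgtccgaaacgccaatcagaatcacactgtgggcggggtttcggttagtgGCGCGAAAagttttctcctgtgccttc
Cdc6: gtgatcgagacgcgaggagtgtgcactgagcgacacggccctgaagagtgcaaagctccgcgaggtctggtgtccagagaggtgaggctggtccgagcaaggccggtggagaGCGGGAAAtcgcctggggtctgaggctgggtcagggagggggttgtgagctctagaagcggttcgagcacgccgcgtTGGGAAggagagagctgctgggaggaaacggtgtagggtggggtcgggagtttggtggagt
Counted from the start site, the first base of the E2F word lies at -138 in Pola1 and Cdc6, at -185 in Uhrf1 and at -27 in Orc1. The 36 genes lie on 16 chromosomes, with at most 7 on 1 chromosome.

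At 6 h, 4OHT was present on both sides of the comparison. Withdrawal lowered 3 of 36 and raised none, against 7.48% of all genes lower and 6.78% higher, and the median change was -0.03 beside 0.03 for all genes. The 3 were Pold2 at -0.89 ± 0.19 (adjusted p = 0.00699), Pole2 at -0.64 ± 0.11 (adjusted p = 0.00206) and Orc2 at -0.61 ± 0.10 (adjusted p = 0.000921). Orc2, a core ORC subunit, thus changed by -0.61 at 6 h and -0.70 at 24 h under 4OHT, and Pole2 by -0.64 and -2.45. Uhrf1 was at -0.30, Clspn at 0.26 and Lig1 at 0.07 at 6 h, and none of these passed. The Pold2 call did not hold in a fit of the compared arrays alone (adjusted p = 0.0565). With the experiment as a block 5 genes were lower, against 10% of all genes, and 1 was higher, against 11.2%. That gene was Timeless at 0.34 (adjusted p = 0.0147).

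Within cells kept without IL-7 and with 4OHT, 29 of 36 genes were lower at 24 h than at 6 h, against 6.81% of all genes, with a median of -0.83 beside 0.02 for all genes. Pole changed most, by -1.83 ± 0.14 (adjusted p = 9.7e-06), followed by Pola1 at -1.72, Lig1 at -1.69 and Pole2 at -1.61. The 7 genes that did not pass were Orc1 (-0.69), Rpa2 (-0.35), Rpa1 (-0.38), Rfc2 (-0.27), Rfc1 (-0.14), Pold3 (-0.12) and Orc2 (-0.04). The calls of Fen1, Pola2, Pold2 and Rpa3 were lost with array medians set to 0. Cells kept with IL-7 and 4OHT moved the other way, with 17 of 36 genes higher at 24 h than at 6 h, against 1.63% of all genes, and a median of 0.55 beside -0.01 for all genes. Clspn rose by 0.99 ± 0.21 (adjusted p = 0.0216), Uhrf1 by 0.98 ± 0.19 (adjusted p = 0.0158) and Cdc6 by 0.84 ± 0.15 (adjusted p = 0.00907). That count was 31 with the experiment as a block, against 4.57% of all genes. It was 0 without the first array of 24 h with IL-7 and 4OHT, 3 without the second, and 0 without the second array of 6 h with IL-7 and 4OHT. It was 4 with array medians set to 0.

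The changes with 4OHT, by which fusion activity was induced, were examined next. After 6 h with IL-7, against time 0, 3 of 36 genes fell, against 4.85% of all genes lower, with a median of -0.28 beside -0.02 for all genes. Timeless, which keeps helicase and polymerase together, fell from 10.004 and 9.78 at time 0 to 9.04 and 8.72, a change of -1.01 ± 0.12 (adjusted p = 0.000165). Rfc5, a small subunit of the clamp loader, fell from 12.46 and 12.20 to 11.74 and 11.34, a change of -0.79 ± 0.13 (adjusted p = 0.00247). Chaf1a changed by -0.51 ± 0.13 (adjusted p = 0.0344). That call did not hold in a fit of the compared arrays alone (adjusted p = 0.15). With array medians set to 0 it was lost too (adjusted p = 0.112). The comparison joins 4OHT with 6 h of culture, and these cannot be told apart. Values were lower in both experiments for 33 genes. With the experiment as a block 13 genes were lower, against 8.21% of all genes. The count moved both up and down when single arrays were left out.

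After 24 h with IL-7, 4OHT lowered 1 gene of 36, against 3.94% of all genes lower and 5.22% higher (1125 and 824 genes after renewed quantile normalization), and the median change was -0.03 beside -0.04. That gene was Timeless. It read 10.004 and 9.78 at time 0, 9.04 and 8.72 at 6 h with IL-7 and 4OHT, and 9.34 and 9.11 at 6 h without IL-7 and with 4OHT. At 24 h Timeless read 10.10 and 9.94 with IL-7, 9.38 and 9.37 with IL-7 and 4OHT, 9.33 and 9.29 without IL-7, and 7.84 and 7.93 without IL-7 and with 4OHT. In both pairs of 24 h groups its arrays with 4OHT lay below those without it, and the change with IL-7 was -0.65 ± 0.12 (adjusted p = 0.00369). Rfc5, at -0.30, did not pass (adjusted p = 0.202). Pola1 was at -0.12 (95% confidence interval -0.55 to 0.31), Pcna at -0.10 (-0.32 to 0.13) and Uhrf1 at 0.14 (-0.28 to 0.56). With the experiment as a block 2 genes were lower, against 7.58% of all genes.

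Without IL-7, 24 h of 4OHT lowered 13 of 36 genes and raised none, against 8.17% of all genes lower and 7.1% higher, with a median of -0.30 beside 0.01 for all genes. Pole2 fell by 1.46 ± 0.11 (adjusted p = 2.91e-06), Timeless by 1.42 ± 0.12 (adjusted p = 4.69e-06) and Rfc5 2.14-fold (log2 95% confidence interval -1.39 to -0.81, adjusted p = 0.000116). Rfc5 read 11.85 and 11.81 without IL-7 or 4OHT and 10.77 and 10.70 with 4OHT, and its levels with IL-7 were 12.50 and 12.41 without 4OHT and 12.14 and 12.17 with it. Pola1 changed by -1.01 ± 0.20 (adjusted p = 0.00354), Lig1 by -0.88 ± 0.19 (adjusted p = 0.0063), Pole by -0.64 ± 0.14 (adjusted p = 0.00768) and Pcna by -0.50 ± 0.10 (adjusted p = 0.00495). The others that fell were Pold2 (-0.72), Chaf1b (-0.67), Cdc6 (-0.57), Chaf1a (-0.46), Rfc3 (-0.40) and Dnmt1 (-0.36). By role these were 3 of 5 genes of polymerases delta and epsilon, 3 of 6 of the clamp and loader, 2 of 3 of chromatin assembly, and 1 of 6 of origin licensing. None of the 3 RPA genes and neither Cdc7 nor Dbf4 passed, and none of these 5 had an unadjusted p under 0.05. Uhrf1, at -0.52 ± 0.19, and Tipin, at -0.62 ± 0.20, did not pass (adjusted p = 0.0997 and 0.0546). With the experiment as a block 16 genes were lower, against 11.5% of all genes, adding Tipin (adjusted p = 0.000333), Prim2 (adjusted p = 0.0185) and Uhrf1 (adjusted p = 0.0324). Of the pre-B cell markers 5 of 11 were higher and 2 lower in this comparison, and of the plasma cell markers 2 of 5, Sdc1 and Prdm1, were lower. No other marker passed, and their part in the result was not tested. The calls of Pole2, Timeless, Rfc5 and Pola1 held whichever single array was left out, and those of Cdc6, Chaf1a, Rfc3 and Dnmt1 were lost with array medians set to 0. The count of 13 fell to 5 and 7 without the first or second array without IL-7 or 4OHT, and to 6 without the second array without IL-7 and with 4OHT.

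**Figure D4:**
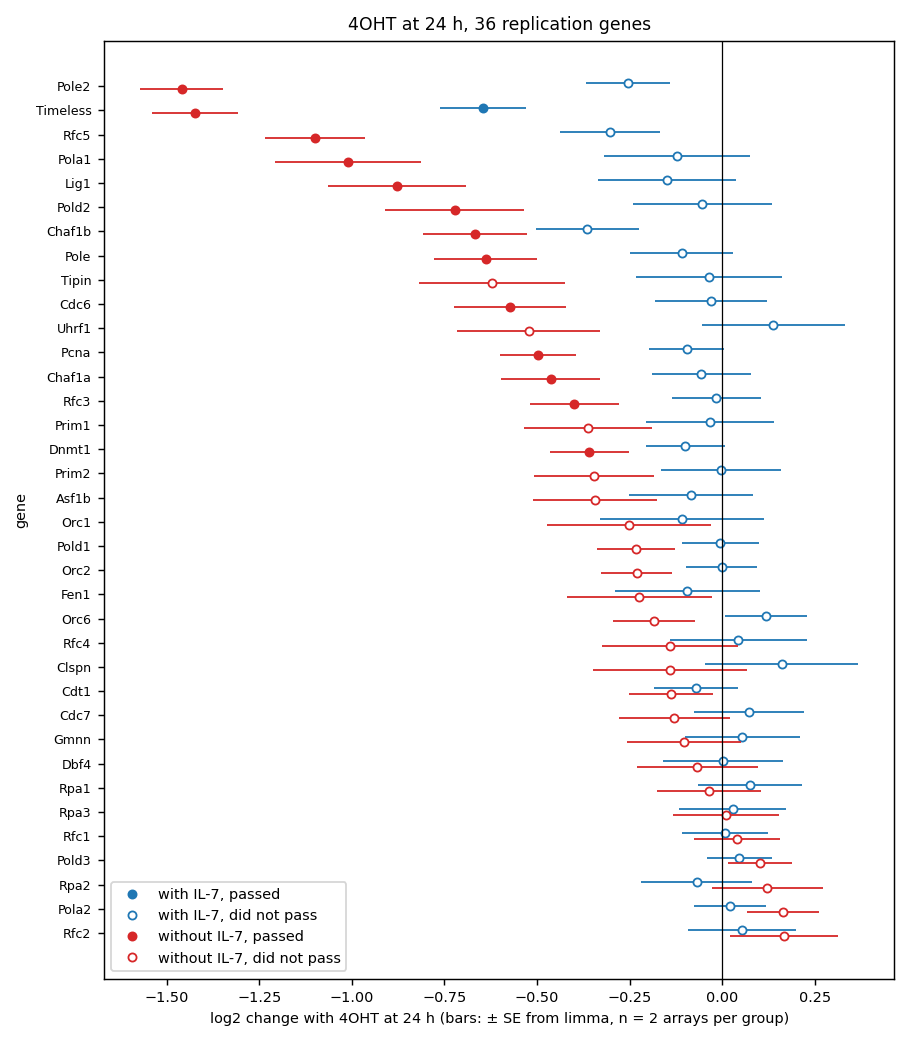
Log2 change with 4OHT at 24 h (horizontal axis) for each of the 36 genes (vertical axis), with IL-7 (blue) and without it (red). Bars are ± SE from limma with n = 2 arrays per group, filled points passed and open points did not. With IL-7 only Timeless is filled, and without IL-7 13 genes are, with Pole2, Timeless and Rfc5 farthest to the left.

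Whether the 4OHT effect differed with IL-7 was tested directly by the interaction at 24 h, the 4OHT change without IL-7 minus that with IL-7. It passed for 1 of 36 genes, Pole2, against 0.617% of all genes with a negative interaction. The 4OHT change of Pole2 was -0.25 ± 0.11 with IL-7 and -1.46 ± 0.11 without it, and the interaction was -1.21 ± 0.16 (adjusted p = 0.00519). Timeless (-0.78 ± 0.16, adjusted p = 0.0612), Rfc5 (-0.80 ± 0.19, adjusted p = 0.109) and Pola1 (-0.89 ± 0.28, adjusted p = 0.28) did not pass. The estimate was negative for 31 genes and positive for 5, beside 8333 negative and 11605 positive among the 19938 genes. An unadjusted limma p under 0.05 was reached by 11 of the 36, beside 1826 of the 19938 measured. With the experiment as a block 7 genes passed, against 1.84% of all genes, adding Pola1, Pcna, Rfc5, Lig1, Tipin and Timeless. The count was 3 when either array of 6 h with IL-7 and 4OHT was left out of the fit.

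Both treatments together, against neither at 24 h, lowered all 36 genes, against 15.4% of all genes lower and 18.1% higher. The median was -1.67, beside -0.01 for all genes. With array medians set to 0 the median of all genes was -0.12, with 3900 lower and 2347 higher, and the median of the 36 ranged from -1.78 to -1.58 over all settings. Pola1 fell 7.21-fold, a log2 change of -2.85 ± 0.20 (adjusted p = 4.64e-07), Pole by 2.75, Pole2 by 2.71, Uhrf1 by 2.68 and Lig1 by 2.58 on the log2 scale. The smallest fall was that of Pold3 at -0.44. The comparisons at 24 h share arrays, so they do not repeat one another independently.

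The words of the Ikaros motif were also looked for in the promoter windows. TGGGAA, on either strand, was in a window of 14 of the 31 genes (45.2%), against 28.3% of all genes. Of the 12 genes with a window that fell with 4OHT in the absence of IL-7, 9 held it, and of the other 19 genes 5 did. Among genes with a single window these were 6 of 9 and 3 of 15. Cdc6, Chaf1a, Rfc3 and Dnmt1, all among the 9 of 12, lost their calls with array medians set to 0. Rfc5 and Pola1, which fell most after Pole2 and Timeless, held no TGGGAA in a window, and neither did Pcna. The same split over the 31 genes was 6 of 12 and 6 of 19 for the E2F words, and 6 of 12 and 11 of 19 for CCAAT. For TTTGAA and for CACGTG it was 2 of 12 and 4 of 19 each. These splits were looked at after the calls were known and were not tested. The 250 bases before the start of Pole2 (chr12:69228191-69228440, minus strand) and Timeless (chr10:128237816-128238065, plus strand) are printed because these genes fell most with 4OHT, with TGGGAA or its reverse complement TTCCCA in capitals.
Pole2: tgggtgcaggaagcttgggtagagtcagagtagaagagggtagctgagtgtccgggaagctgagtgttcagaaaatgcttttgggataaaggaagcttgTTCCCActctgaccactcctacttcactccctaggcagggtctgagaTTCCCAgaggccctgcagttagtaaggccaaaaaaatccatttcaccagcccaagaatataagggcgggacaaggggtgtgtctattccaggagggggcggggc
Timeless: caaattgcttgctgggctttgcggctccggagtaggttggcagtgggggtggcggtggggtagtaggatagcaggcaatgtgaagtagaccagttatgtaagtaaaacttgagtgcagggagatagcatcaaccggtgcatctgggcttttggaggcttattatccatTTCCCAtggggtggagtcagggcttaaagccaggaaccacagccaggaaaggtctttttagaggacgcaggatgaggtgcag
The first bases of these words lie at -151 and -104 in Pole2 and at -82 in Timeless. Pole2 also holds an E2F word at 11, after its start and outside the printed bases, and the Timeless window holds no E2F word.

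In culture with IL-7 and without 4OHT, no gene of the 36 passed at 24 h against time 0, against 0.737% of all genes higher. All 36 estimates were above 0, against 10868 of all 19938 genes, with a median of 0.33 beside 0.01 for all genes. Of the 36, 20 had an unadjusted limma p under 0.05, against 3349 of all genes. Orc1 was highest at 0.74 ± 0.22 (adjusted p = 0.0983), followed by Uhrf1 at 0.55 and Cdc6 at 0.53. The median was 0.25 in experiment 1 and 0.40 in experiment 2, and with the experiment as a block 14 genes were higher, against 3.16% of all genes.

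Other genes of the replication pathway were read from lists of the same kind. Beside their counts on IL-7 withdrawal at 24 h without 4OHT, 8.78% of all genes passed as lower and 11.2% as higher. All 12 genes of the MCM, CDC45 and GINS helicase were lower on IL-7 withdrawal at 24 h without 4OHT, with a median of -1.38, led by Mcm10 at -1.95 ± 0.15 (adjusted p = 1.37e-05) and Cdc45 at -1.88 ± 0.16 (adjusted p = 1.62e-05). With 4OHT added in the absence of IL-7, 5 of the 12 fell further (8 with the experiment as a block), against the 8.17% of all genes given above, among them Mcm2 at -0.82 ± 0.13 (adjusted p = 0.000826). Of 9 measured genes of deoxynucleotide supply 8 fell on withdrawal, with a median of -1.30. Of 18 G1/S regulators 15 fell, with a median of -1.31, among them E2f8, an E2F repressor, at -1.87 ± 0.20 (adjusted p = 5.84e-05) and Ccne1, cyclin E1, at -1.76 ± 0.20 (adjusted p = 8.07e-05). E2f2 rose with 4OHT, by 1.04 ± 0.19 (adjusted p = 0.00457) with IL-7 and 1.92 ± 0.19 (adjusted p = 2.57e-05) without it. Of 22 other fork and licensing genes 15 fell and 1 rose on withdrawal.

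The 17 measured G2/M genes also fell on IL-7 withdrawal at 24 h without 4OHT, all 17 against 8.78% of all genes. Their median was -1.79, led by Ttk at -2.32 ± 0.22 (adjusted p = 3.33e-05). With 4OHT in the absence of IL-7, none of the 17 passed in limma, 4 had an unadjusted p under 0.05, and the median was 0.15, beside -0.30 for the 36 replication genes. In that comparison 4940 of all 19938 genes had an unadjusted limma p under 0.05. Of the 17, 4 were higher with the experiment as a block and 1 after renewed quantile normalization. With the block 22.4% of all genes passed in either direction. At 6 h of withdrawal none of the 17 passed either, and the median was 0.19. An unadjusted limma p under 0.05 was reached by 4 of them, against 4767 of all 19938 genes. There 5 of the 17 were higher with the experiment as a block, against 11.2% of all genes. The difference between the lists was not tested.

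A last list held the DNA polymerases that serve repair, lesion bypass or mitochondria. Of 11 measured, 2 fell and 4 rose on IL-7 withdrawal at 24 h without 4OHT, against 8.78% of all genes lower and 11.2% higher. Their median was 0.19. Polq, the polymerase of end joining by short homologies, fell at -1.46 ± 0.11 (adjusted p = 1.11e-05), Polh, which copies past ultraviolet lesions, fell at -0.66 ± 0.19 (adjusted p = 0.0293), and Polm, which fills ends in V(D)J joining, rose at 0.71 ± 0.10 (adjusted p = 0.000421). With array medians set to 0 these counts were 1 lower and 2 higher. With 4OHT at 24 h none of the 11 fell. With IL-7 4 rose, against 5.22% of all genes higher, and without IL-7 5 rose, against 7.1%. Without IL-7 Polh rose by 1.72 ± 0.19 (adjusted p = 5.61e-05), Polm by 0.82 ± 0.10 (adjusted p = 0.000123) and Rev1, a scaffold of lesion bypass, by 0.64 ± 0.09 (adjusted p = 0.000309). Pold4, the small accessory subunit of polymerase delta, rose with 4OHT by 0.89 ± 0.15 (adjusted p = 0.00201) with IL-7 and 0.88 ± 0.15 (adjusted p = 0.00117) without it. None of Pold1, Pold2 and Pold3 passed as higher in either comparison.

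**Figure D5:**
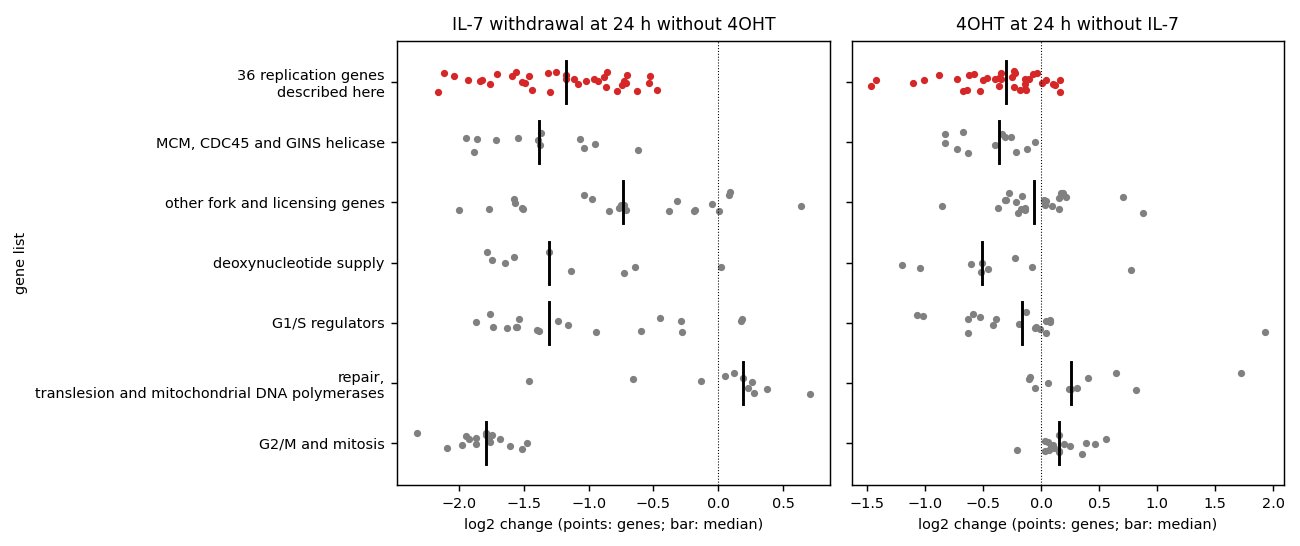
Log2 change of each gene (horizontal axes, points) on IL-7 withdrawal at 24 h without 4OHT (left) and on 4OHT at 24 h without IL-7 (right), for the 36 replication genes (red) and the 6 other lists (grey). Bars are medians. On the left the median is -1.17 for the 36 genes and 0.19 for the repair, translesion and mitochondrial polymerases, and on the right it is -0.30 for the 36 genes and 0.15 for the G2/M genes.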

How the data were processed

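The authors deposited 1 table of log2 expression values for 35556 probe sets and 14 arrays, made with Affymetrix Expression Console 1.1 and RMA per the submitters' processing notes. RMA scales arrays against each other, so each change is relative to other genes, although the array medians still differed. Other settings, the genome build and probe positions were not given in the sources used here. Depth has no meaning for arrays, whose number limits the precision. Values were used as deposited. Probe sets were named through the platform annotation. Of the 35556, 21789 had 1 symbol and 1621 several, which entered no comparison, and the brightest per gene left 19938 genes. Of the 36 genes 34 had 1 probe set.

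Group means were fitted over all 14 arrays with limma 3.58.1 (lmFit and eBayes, 7 residual and 4.83 prior degrees of freedom) in R 4.3.3, with 11 comparisons and an F test, two-sided, adjusted over all genes by Benjamini-Hochberg at 0.05. The fit was tested on simulated data with independent noise in each array, a setting that leaves out the pairing by experiment described next. The labels give 2 independent experiments, and the experiment number pairs the arrays: deviations from group means correlated in all 21 pairs of groups (0.124 to 0.631). All arrays are of 1 cell line, and the p-values measure only how replicate arrays spread. Values in every array are given for Pcna and the 12 genes with the widest range of group means, changes with SE and adjusted p for up to 10 passing genes per comparison, and genes of other lists are named only from their 3 largest passing changes in a comparison. Genes, lists and motifs were chosen with earlier results of these data known. Alternatives were the experiment as a block, fits on fewer arrays, other scalings, 1 array left out, another probe set and a filter on dim genes.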

Additional observations from a re-analysis of the deposited data

Results flagged for a closer look

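The effect of 4OHT on Pole2 at 24 h differed between cultures without and with IL-7 by the interaction test. The 4OHT change was -1.46 ± 0.11 without IL-7 and -0.25 ± 0.11 with it (log2, ± SE, n = 2 arrays per group), and the difference was -1.21 ± 0.16, with a limma adjusted p of 0.00519. It was negative in both experiments.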

How the results depend on the processing

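No change of a gene that passed turned direction under any setting tried, also with 1 array left out. Many of these settings could not turn it. The experiment as a block, fits on fewer groups and the filter on dim genes leave each log2 change as it was. So does leaving out an array of a group outside the comparison. Of 1357 results of passing genes under 9 kinds of other settings 1322 still passed. The counts for IL-7 withdrawal at 24 h, both treatments against neither and the F test stayed within 1.5 times under each setting. With the experiment as a replicate block the genes passing were 13 for 4OHT at 6 h against time 0, 6 for withdrawal at 6 h, 14 for 24 h against time 0, 2 for 4OHT at 24 h with IL-7, 7 for the interaction and 31 for 24 h against 6 h with IL-7, and the block ended no call. Fitted on the compared arrays alone, 4 genes passed for the interaction and 9 for 24 h against 6 h with IL-7. Fitted on the 24 h arrays alone, a setting chosen after seeing the data, 3 passed for 4OHT with IL-7 and 4 for the interaction. Renewed quantile normalization gave 2 for the interaction, and array medians set to 0 gave 4 for 24 h against 6 h with IL-7. The cause was not tested. Leaving out 1 array in turn gave 2 to 6 for 4OHT at 6 h, 5 to 15 for 4OHT at 24 h without IL-7, 1 to 3 for the interaction and 0 to 24 for 24 h against 6 h with IL-7. For withdrawal at 6 h it gave 2 to 4, for withdrawal at 24 h 34 to 36 without 4OHT and 35 to 36 with it, and for 24 h against 6 h without IL-7 20 to 30. The median of the 36 changed sign between settings for 4OHT at 24 h with IL-7 (-0.09 to 0.05) and for withdrawal at 6 h (-0.18 to 0.14). Signal over background and saturation were not read, and 2 arrays per group limit the precision.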
